A study of Mus musculus with 14 samples.

Results

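MHC class I molecules show fragments of a cell's own proteins to CD8 T cells at the cell surface. A class I molecule is a heavy chain paired with β2-microglobulin; the TAP transporter pumps peptides into the endoplasmic reticulum, tapasin holds the empty molecule beside the transporter, and ERAP1 trims the peptides to length. NLRC5 is the transcriptional activator of this gene set, and interferons are its best known inducers. Here the RNA of 9 of these genes, out of 55487 in the count tables, was described in mouse bone marrow cells exposed to interleukin-1β (IL-1β), an inflammatory cytokine. The 9 genes were chosen by name for their role, with earlier results of these data known. They were the heavy chains H2-K1, H2-D1 and H2-T23, B2m, Tap1, Tap2, Tapbp (tapasin), Nlrc5 and Erap1.

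Bone marrow carrying a heterozygous Jak2V617F allele, activated by Mx1Cre with pI-pC, was transplanted into lethally irradiated C57BL/6 mice. Jak2V617F is the mutation that drives most myeloproliferative neoplasms. The recipients then received IL-1β intraperitoneally (0.5 μg/dose, 3 doses per week) or PBS for 16 weeks, so that the PBS groups carried the mutation as well. The pI-pC, which itself induces interferon, was given to the donors before transplantation. LSK cells (Lin-Sca1+c-kit+, the fraction with the stem cells) and LK cells (Lin-c-kit+, myeloid progenitors) were sorted for 3 PBS and 2 IL-1β libraries of each. Mesenchymal stromal cells (MSC) were grown for 21 days from the marrow of wild-type C57BL/6 mice and exposed to IL-1β at 5 ng/ml (n = 2) or PBS (n = 2) for 72 h, and carried no Jak2 mutation. Labels do not say which libraries share an animal or a culture dish, so p-values measure the spread between libraries, which may be technical.

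The libraries held 4393233 to 30871055 counted read pairs, and every IL-1β library of LSK and LK cells was shallower than every PBS library of the same cells. LSK PBS replicate 2 stood apart, with 4541 and 4698 genes over 2-fold away from the other LSK PBS libraries, which differed from each other in 1669. Results that rest on it are given without it as well. All 9 genes were above the filter on low counts in every comparison, with at least 72 read pairs per library. Together they took 0.519 to 0.662% of read pairs in LSK cells with PBS and 0.369 to 0.477% with IL-1β. In LK cells the share was 0.263 to 0.384% with PBS and 0.334 to 0.360% with IL-1β. In MSC it was 0.510 to 0.673% with PBS and 1.18 to 1.20% with IL-1β.

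Defining markers were checked against the labels. Levels are given as CPM, read pairs of a gene scaled to the size of its library. Ly6a, which encodes the Sca1 of the LSK gate, stood at 24.9, 38.1 and 28.5 CPM in LSK cells with PBS and at 0.759 CPM or below in LK cells with PBS. MSC libraries expressed the mesenchymal genes Prrx1, Pdgfra and Col1a1, but they also held macrophage RNA. The summed level of 12 mesenchymal markers was 5889 to 6926 CPM in MSC with PBS and 9864 to 10307 CPM with IL-1β, whereas that of 12 macrophage markers was 16458 to 20865 CPM with PBS and 42264 to 43313 CPM with IL-1β. The higher mesenchymal sum with IL-1β was that of Spp1, at 3101 and 3909 CPM with PBS and 6886 and 6187 CPM with IL-1β. The other 11 markers, a set formed after the values were seen, summed to 1980.2 to 3825 CPM with PBS and 3421 to 3677 CPM with IL-1β, which overlap. Of the macrophage sum, Lyz2 alone took 8440 and 5825 CPM with PBS and 25063 and 24907 CPM with IL-1β. Of the mesenchymal markers Lepr was at 0 in both PBS libraries, and no macrophage marker was at 0. In bulk RNA a change in the number of cells of a type and a change in RNA per cell cannot be told apart, and the MSC values below are those of the mixed cultures.

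The genes lie on 4 chromosomes of GRCm38, and the intervals span their annotated exons. Within the major histocompatibility complex on chromosome 17, Tapbp (ENSMUSG00000024308) lies at chr17:33915899-33929292 and H2-K1 (ENSMUSG00000061232) at chr17:33996017-34000347. Tap1 (ENSMUSG00000037321) follows at chr17:34187553-34197225 and Tap2 (ENSMUSG00000024339) at chr17:34203527-34216321. H2-D1 (ENSMUSG00000073411) lies at chr17:35262730-35267499 and H2-T23 (ENSMUSG00000067212) at chr17:36029773-36032855. Outside the complex, B2m (ENSMUSG00000060802) lies at chr2:122147686-122153083, Nlrc5 (ENSMUSG00000074151) at chr8:94434356-94527272 and Erap1 (ENSMUSG00000021583) at chr13:74639568-74693201. H2-K1 and H2-D1 are paralogs, as are the other heavy chains to differing degrees. Read pairs that map to several genes were not counted, so the levels of similar heavy chains are uncertain. Exons of Tap1, Tap2, Tapbp, Nlrc5 and Erap1 overlap genes on the opposite strand, from which the strand-specific counting separates them, and Tapbp also overlaps Zbtb22 on its own strand.

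Promoters are shown because the genes are known to share control and because NLRC5, which binds DNA through partners, acts on a composite element of class I promoters made of an X box, with its X2 part, and a Y box. RefSeq (GRCm38.p6) gave promoters, 250 bases before to 50 after a start site, for 7 of the 9 genes; Tap2 and Nlrc5 are named only. Capitals mark 3 patterns, searched on both strands: TGACG, then 20 bases, then ATTGG (an X2 and a Y box), GAANNGAAA and GAAANNGAAA (cores that interferon regulatory factors bind, here often on the reverse strand as TTTC). The spacing was chosen after the promoters were read. The H2-K1 window is chr17:34000353-34000463, minus strand; that of H2-D1 is chr17:35262914-35263034, plus strand; that of B2m is chr2:122147537-122147647, plus strand; and that of H2-T23 is chr17:36032741-36032841, minus strand.
H2-K1: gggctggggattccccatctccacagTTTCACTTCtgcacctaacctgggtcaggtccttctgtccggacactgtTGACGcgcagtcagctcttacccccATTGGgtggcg
H2-D1: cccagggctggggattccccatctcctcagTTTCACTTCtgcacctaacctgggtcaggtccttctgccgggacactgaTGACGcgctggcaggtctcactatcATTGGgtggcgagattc
B2m: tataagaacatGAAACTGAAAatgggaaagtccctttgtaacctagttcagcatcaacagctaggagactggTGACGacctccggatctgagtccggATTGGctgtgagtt
H2-T23: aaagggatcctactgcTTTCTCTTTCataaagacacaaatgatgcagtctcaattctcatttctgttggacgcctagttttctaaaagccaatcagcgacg

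TGACG and ATTGG at this spacing stood in the promoters of H2-K1, H2-D1 and B2m, the chains of the classical molecule, and in 0.0944% of all 32851 promoters (31). As the spacing was chosen after the promoters were read, this share is no test of the match. GAANNGAAA was in H2-K1 and H2-D1 and in 7.52% of all promoters, and GAAANNGAAA in H2-T23, B2m and Erap1 and in 3.44%. The NF-κB consensus, searched as a pattern of letters not printed here, was in H2-K1 and H2-D1, which share it with 5.89% of all promoters. Tap1 and Tapbp matched none of these patterns in the window. TTCNNNGAA, the core that STAT factors bind, was in none of the 7 and in 8.3% of all promoters. A match is a description of letters and not a bound site.

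Levels were compared between genes as CPM per kilobase of exon, on 1 TMM scale over the 14 libraries. B2m had the highest mean in every group, from 492 ± 101 (SD, n = 2) in LSK with IL-1β to 4841 ± 320 (SD, n = 2) in MSC with IL-1β. Nlrc5 had the lowest in every group, from 1.62 ± 0.0722 (SD, n = 2) in MSC with PBS to 13.4 ± 1.25 (SD, n = 3) in LSK with PBS. B2m, H2-K1 and H2-D1, the chains of the classical molecules, thus ranked above the other 6 genes in every group, and H2-T23 ranked below Tap2 in the sorted cells. In LSK with PBS the order between B2m and Nlrc5 was H2-K1 (559 ± 62.5), H2-D1 (437 ± 69.2), Tap2 (112 ± 49.8), H2-T23 (63.8 ± 15.2), Tapbp (57.3 ± 13.5), Tap1 (54.2 ± 4.11) and Erap1 (26.0 ± 0.791), all CPM per kilobase with SD and n = 3. The libraries of B2m, H2-K1 and H2-D1 overlapped as neighbours in this order, as did those of Tap2, H2-T23, Tapbp and Tap1. In MSC with PBS the transporter was scarcer against the heavy chains than in LSK with PBS. H2-D1 stood at 1230 ± 185, H2-K1 at 365 ± 55.3, Tap2 at 27.8 ± 1.26 and Tap1 at 9.30 ± 0.150 CPM per kilobase (SD, n = 2). The mean of H2-D1 was thus above that in LSK with PBS, and that of H2-K1 below it.

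**Figure D1:**
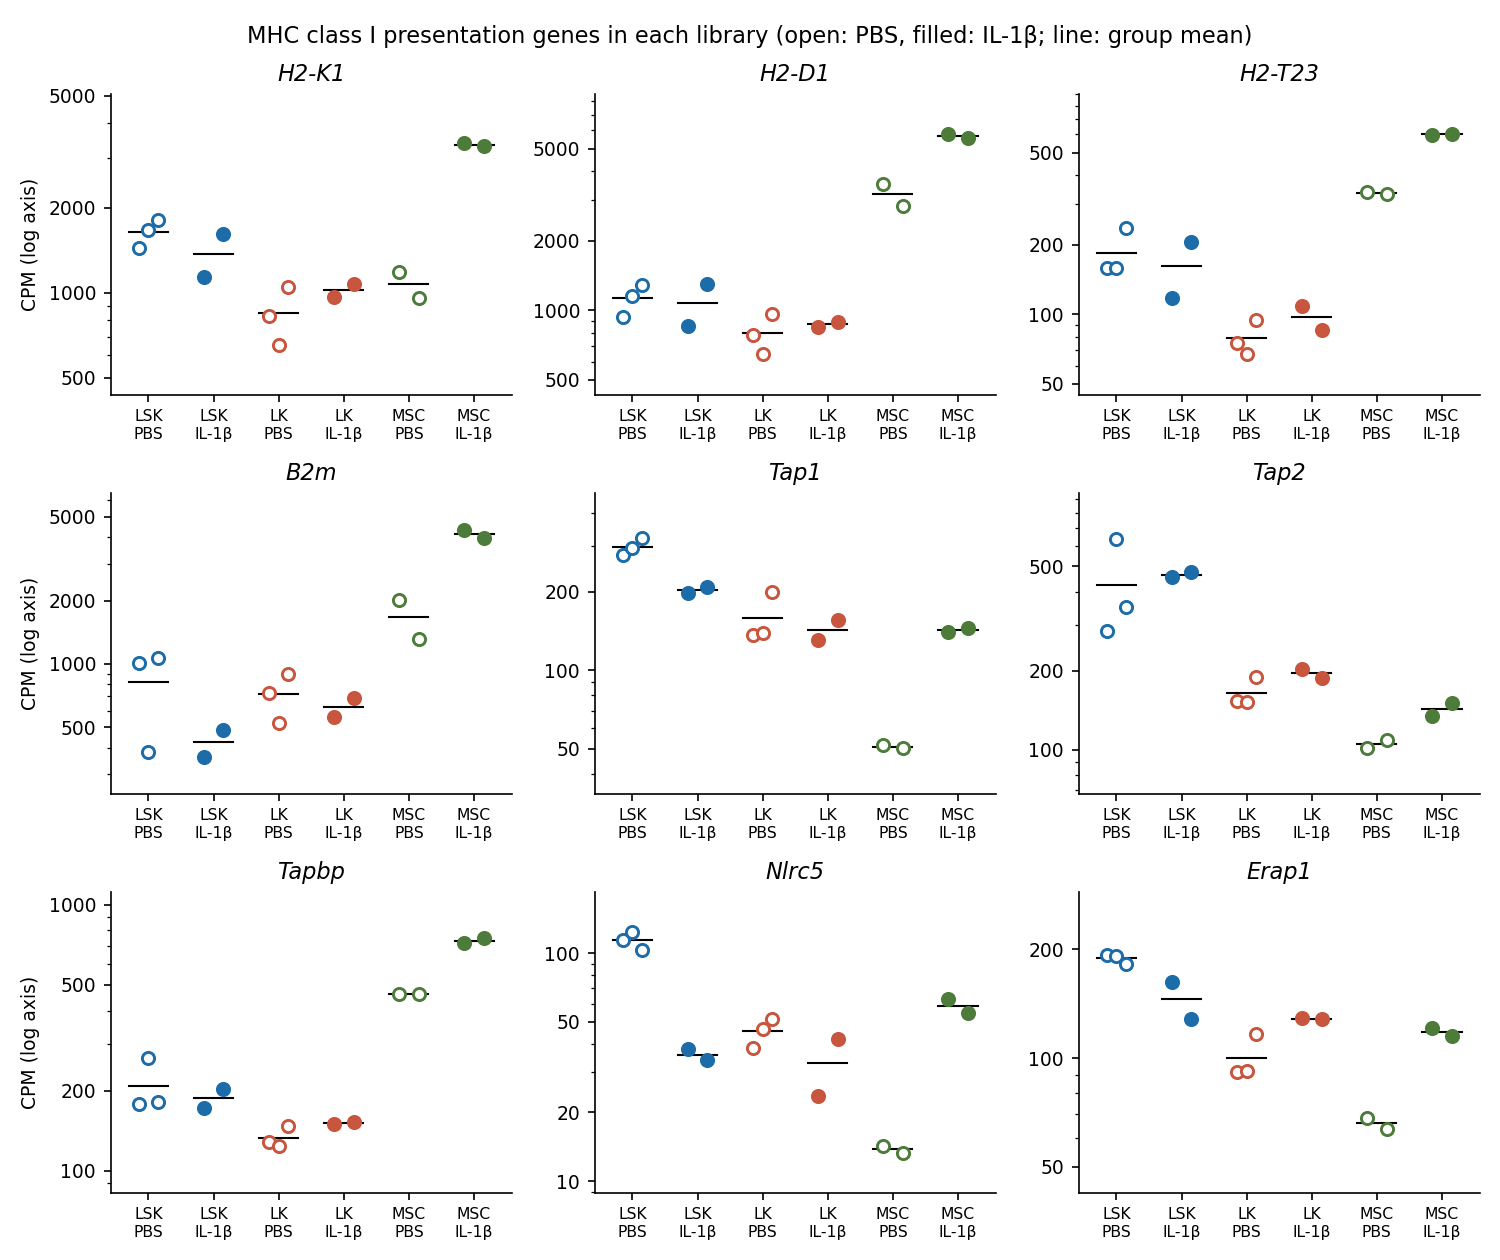
Level of each of the 9 genes in CPM (log axis) in every library, by cell population and treatment; open points are PBS, filled points IL-1β and lines group means. Both MSC libraries with IL-1β lie above both with PBS in all 9 panels, and Nlrc5 in LSK cells is at 103 to 124 CPM with PBS and 33.9 to 37.9 CPM with IL-1β.

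The first comparison asked how the presentation genes of cultured MSC differed after IL-1β. Calls required an adjusted p under 0.05 (edgeR's quasi-likelihood test, Benjamini-Hochberg over all genes tested) together with a log2 fold change beyond 0.5 in either direction. In MSC 8 of the 9 genes were called higher with IL-1β and Tap2 was not called; of all 13239 genes tested, 7.14% were called higher (945) and 4.31% lower (570), a split that became 817 and 831 with upper-quartile scaling, under which the same 8 genes were called. For each of the 9, both IL-1β libraries exceeded both PBS libraries, which 33.3% of all genes did. The median log2 fold change of the 9 was 0.81, and that of all genes 0.0044.

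The activator Nlrc5 rose most. It stood at 14.2 and 13.3 CPM in MSC with PBS and at 63.1 and 54.5 CPM with IL-1β, a 4.19-fold increase (log2 2.07 ± 0.13 SE, adjusted p = 0.00176). Among the heavy chains H2-K1, a classical class I molecule, was at 1186 and 957 CPM under PBS and 3394 and 3304 CPM under IL-1β, 3.04-fold higher (log2 1.61 ± 0.15 SE, adjusted p = 0.00455). H2-D1, the other classical heavy chain, was at 3509 and 2835 CPM under PBS and 5762 and 5536 CPM under IL-1β, 1.73-fold higher (log2 0.79 ± 0.15 SE, adjusted p = 0.0287). Their promoters hold the same matches in the same order, as printed above, and H2-K1 had the larger fold change, a difference that was not tested. H2-T23 encodes Qa-1, the non-classical chain read by NKG2 receptors. It was at 339 and 330.4 CPM under PBS and 598 and 601 CPM under IL-1β (log2 0.81 ± 0.11 SE, adjusted p = 0.0111). B2m, the light chain of every class I molecule, was at 2018 and 1316 CPM under PBS and 4358 and 3969 CPM under IL-1β, 2.43-fold higher (log2 1.28 ± 0.22 SE, adjusted p = 0.0244).

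The peptide supply genes had log2 fold changes of 0.40 to 1.45, and differences between them were not tested. Tap1 and Tap2 encode the subunits of the same transporter. Tap1 was at 51.5 and 50.3 CPM in MSC with PBS and at 140.3 and 145 CPM with IL-1β, 2.73-fold higher (log2 1.45 ± 0.11 SE, adjusted p = 0.00211). Tap2 was at 102 and 109 CPM under PBS and 135 and 150.5 CPM under IL-1β (log2 0.40 ± 0.12 SE, adjusted p = 0.0832), so its libraries were apart but it passed neither threshold. Tapbp was at 461 and 460.1 CPM under PBS and 719 and 747 CPM under IL-1β (log2 0.63 ± 0.11 SE, adjusted p = 0.0227). Erap1 was at 68.5 and 63.6 CPM under PBS and 121 and 115 CPM under IL-1β (log2 0.81 ± 0.10 SE, adjusted p = 0.0104).

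These calls needed both IL-1β libraries. Without either of them 1 library was left in that group, and most or all of the calls of the 9 were lost. Most calls over all genes were lost as well. The log2 fold changes of the 9 stayed between 0.28 (Tap2) and 2.14 (Nlrc5) whichever library was left out. With the spread estimated over all 14 libraries 4 were called, namely H2-K1, Tap1, Nlrc5 and Erap1. Of 12 macrophage markers 7 were called higher, among them Lyz2 (log2 1.77), Adgre1 (1.32) and Csf1r (1.25), and 5 were not called. Cd68 alone had a negative log2 fold change (-0.47), with both IL-1β libraries under both PBS libraries. The part of these markers in the result was not tested. Of 11 mesenchymal markers tested, Spp1 alone was called higher and none lower.

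**Figure D2:**
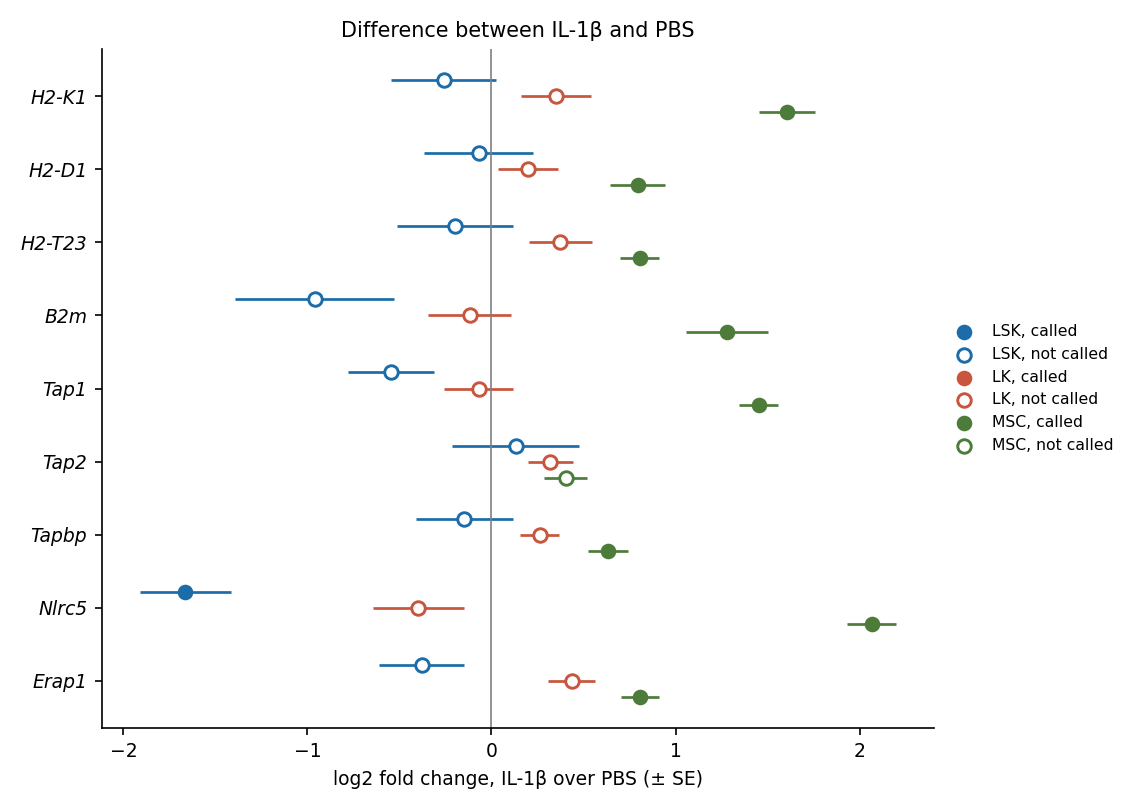
Log2 fold change of IL-1β over PBS for the 9 genes in LSK, LK and MSC, with the standard error of the fit as bars; filled points were called. MSC points lie at 0.40 to 2.07, LK points at -0.40 to 0.44 and LSK points at -1.66 to 0.13.

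Other genes of the pathway in MSC were taken from lists of genes with known roles, also chosen with earlier results of these data known. Of 14 further class I heavy chains, 11 were tested and 9 were called higher, with a median log2 fold change of 2.05. The largest changes with counts in both groups were those of the Qa-2 genes H2-Q7 (3.20) and H2-Q6 (2.86), followed by H2-Q4 (2.21) and H2-T24 (2.19), and Cd1d1 had the smallest (0.71, not called). H2-Q10 was at 0 in both PBS libraries and at least 12.9-fold higher with IL-1β, against a floor of 3 read pairs over the group. Type I interferon-stimulated genes were all called higher (16 of 16, median 3.35), with Ifi44 (4.77), Irf7 (4.41), Mx1 (3.97) and Ifit1 (3.85) highest and Bst2 (1.55) lowest. So were all 9 tested interferon-γ-inducible GTPases (median 2.76), from Irgm1 (1.33) to Gbp5 (4.34). Most of the calls in the further heavy chains, interferon-stimulated genes and GTPases were lost without either IL-1β library, as were most calls over all genes. The medians of these lists were then 1.95 to 3.30.

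The transcription factors of class I genes split. Of the 16, 4 were called higher, among them Stat2 (2.20), Irf9 (0.93) and Irf1 (0.58), which carry interferon signals, and 12 were not, among them the RFX and NF-Y subunits that bind the class I promoter. Of the 5 subunits of the immunoproteasome and its PA28 cap, Psmb8 alone was called (0.54), Psmb9 had a log2 fold change of 0.49 and Psme2 of -0.0015. The median of these 5 was 0.24, and that of the 11 helpers of peptide loading 0.088, of which Tapbpl (0.88), a tapasin relative, was called higher and Sec61b (-0.63), a translocon subunit, lower. Class II genes, which present exogenous peptides, had a median of 0.26. None of the 7 was called by edgeR, and DESeq2 called 1. None had an unadjusted p under 0.05, against 3968 of all 13239 genes.

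**Figure D3:**
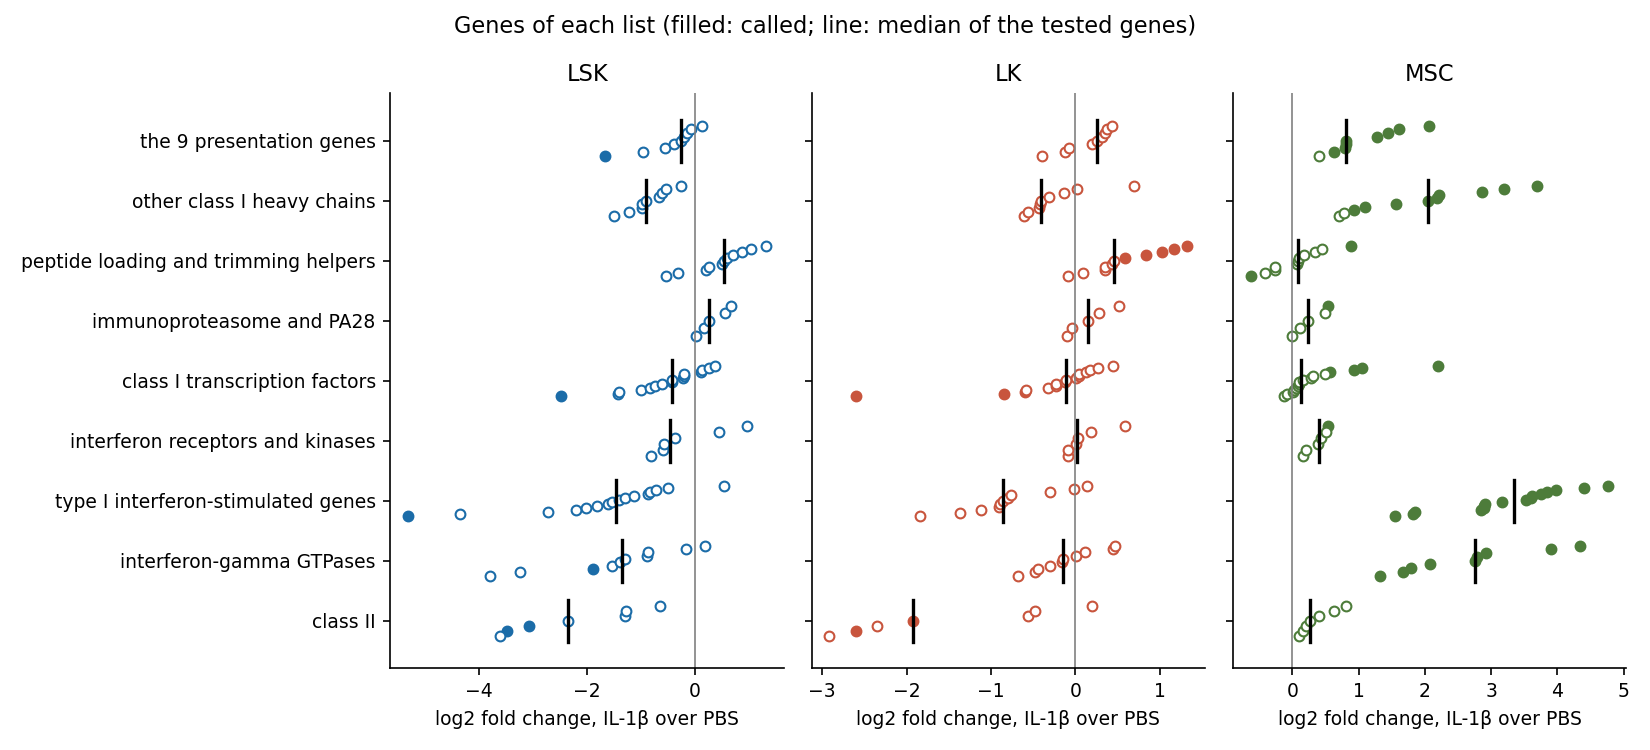
Log2 fold change of IL-1β over PBS for every tested gene of each list in LSK, LK and MSC; filled points were called, lines are medians, and genes with no read pair in 1 group are drawn at their bound. In MSC the interferon-stimulated genes (median 3.35), the GTPases (2.76) and the further heavy chains (2.05) lie above the 9 presentation genes (0.81), and in LSK those 3 lists have medians of -1.47, -1.34 and -0.91.

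The second comparison was the same in LSK cells of the treated mice, where 1 of the 9 genes was called and it was lower. Over all 13132 genes 0.312% were called lower and 0.320% higher. Nlrc5 stood at 115, 124 and 103 CPM in LSK with PBS and at 37.9 and 33.9 CPM with IL-1β, a 3.17-fold decrease (log2 -1.66 ± 0.25 SE, adjusted p = 0.0217). It remained called by DESeq2 and without each PBS library, but without either IL-1β library its adjusted p was up to 0.227 (log2 -1.75 to -1.57 over all libraries left out). Nlrc5 thus moved in opposite directions in LSK cells and in MSC.

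B2m was at 1012, 380.4 and 1067 CPM in LSK with PBS and at 362 and 484 CPM with IL-1β (log2 -0.96 ± 0.43 SE, adjusted p = 0.272). LSK PBS replicate 2 alone lay within the IL-1β range, and without it B2m was called lower as well (log2 -1.29, adjusted p = 0.0436). That fit called 200 of all 12675 genes lower, against 41 in the main fit. Tap1 was at 276, 294 and 321 CPM under PBS and 199 and 209.55 CPM under IL-1β (log2 -0.55 ± 0.23 SE, adjusted p = 0.256). Erap1 was at 193, 192 and 182 CPM under PBS and 162 and 128 CPM under IL-1β (log2 -0.38 ± 0.23 SE, adjusted p = 0.404). For Nlrc5, Tap1 and Erap1 every IL-1β library lay under every PBS library, which held for 21.1% of all genes tested.

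The heavy chains overlapped between treatments. H2-K1 was at 1447, 1664 and 1812 CPM in LSK with PBS and at 1136 and 1612 CPM with IL-1β. H2-D1 was at 938, 1149 and 1293 CPM under PBS and 856 and 1298 CPM under IL-1β. H2-T23 was at 159, 159 and 235 CPM under PBS and 118 and 206 CPM under IL-1β. In each case IL-1β replicate 1 lay below the PBS range, while IL-1β replicate 2 lay inside it for H2-K1 and H2-T23 and just above it for H2-D1, and the log2 fold changes were -0.26 ± 0.29, -0.07 ± 0.30 and -0.20 ± 0.32 (SE). Tapbp (178, 265 and 182 CPM against 172 and 203 CPM) and Tap2 (283, 638 and 352 CPM against 455 and 474 CPM) had log2 fold changes of -0.15 ± 0.26 and 0.13 ± 0.34 (SE). The high Tapbp and Tap2 values were both those of LSK PBS replicate 2, without which Tap2 had a log2 fold change of 0.56 and Tapbp of 0.075, neither called.

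Lists of other genes were mostly at negative values in LSK cells with few calls. None of the 9 further heavy chains tested was called by edgeR (4 at an unadjusted p under 0.05), 3 were called lower by DESeq2, and all 9 log2 fold changes were negative (median -0.91, against -0.061 over all genes). Over all 13132 genes 2431 had an unadjusted p under 0.05. Of 16 type I interferon-stimulated genes Ifi44 was called, at 9.73, 9.20 and 7.05 CPM with PBS and at 0 with IL-1β, at least 39.4-fold lower. The list's median was -1.47, also with Ifi44 and Mx1 at their bounds. Of 10 GTPases Irgm2 was called lower (-1.89), with a median of -1.34 and 4 calls without LSK PBS replicate 2, and DESeq2 called 5 lower. Irf8, a factor of the monocyte and dendritic lineage, was called lower (-2.48) as the only one of 16 transcription factors. Of the class II genes H2-Aa (-3.48) and H2-Eb1 (-3.06) were called lower, and 4 were without LSK PBS replicate 2. Without that library 200 of all 12675 genes were called lower, and with DESeq2 481 of 13132. None of the 11 helpers of peptide loading was called by edgeR (5 at an unadjusted p under 0.05), DESeq2 called 2 higher, and their median was 0.53. None of the 5 immunoproteasome and PA28 subunits was called by edgeR (1 at an unadjusted p under 0.05) or DESeq2 (median 0.26). These calls too needed both IL-1β libraries, since without either of them 0 of all genes were called lower.

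Markers of other cells moved in the same libraries. In LSK cells 4 of 9 tested neutrophil granule genes were called higher, with Lcn2 (6.71) and Elane (3.32) leading, and their summed level was 1992 to 2804 CPM with PBS and 9040 to 10517 CPM with IL-1β. Flt3 (-2.42) and Hlf (-2.08) of 8 stem and progenitor markers were called lower, and the summed level of the 8 was 1356 to 1768 CPM with PBS and 779 to 911 CPM with IL-1β. The depth of the libraries moved with treatment too. The part of these in the Nlrc5 result was not tested.

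In LK cells none of the 9 genes was called by edgeR or DESeq2. An unadjusted p under 0.05 was found for 3 of them, and for 3176 of all 12835 genes tested. Of all 12835 genes 6.77% were called higher and 2.57% lower. Erap1 came closest, at 91.5, 92.4 and 117 CPM under PBS and 129 and 128 CPM under IL-1β (log2 0.44 ± 0.13 SE, adjusted p = 0.0701). Tapbp was at 128, 124 and 147 CPM under PBS and 149.8 and 153 CPM under IL-1β (log2 0.26 ± 0.11 SE). Both genes had no overlap between treatments, as did 19% of all genes in this direction. LK PBS replicate 3 was the highest PBS library for all 9 genes. Without it H2-K1, H2-T23 and Erap1 were called higher (log2 0.55, 0.55 and 0.57), while the share of all genes called higher was then 12.3% (1499 of 12216).

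The remaining genes overlapped in LK cells. H2-K1 was at 829.7, 653 and 1052 CPM under PBS and 969 and 1076 CPM under IL-1β, and H2-D1 at 783, 648 and 959.8 CPM under PBS and 848 and 889.6 CPM under IL-1β. H2-T23 was at 75.1, 67.3 and 94.1 CPM under PBS and 109 and 85.1 CPM under IL-1β. Tap2 was at 153, 152 and 189 CPM under PBS and 203 and 187 CPM under IL-1β. These 4 genes had positive log2 fold changes of 0.20 to 0.37 that did not pass. B2m (725, 525 and 896 CPM against 562 and 691 CPM), Tap1 (137, 139 and 199 CPM against 131 and 155 CPM) and Nlrc5 (38.5, 46.3 and 51.4 CPM against 23.7 and 42.1 CPM) had log2 fold changes of -0.12 ± 0.22, -0.07 ± 0.19 and -0.40 ± 0.25 (SE).

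Among the other genes of LK cells, 5 of 11 helpers of peptide loading were called higher. These were Calr (1.33), calreticulin of the loading complex, Tapbpl (1.17), Pdia3 (1.03), the ERp57 oxidoreductase of that complex, and Uggt1 (0.84) and Sec61a1 (0.59) of general folding and translocation in the endoplasmic reticulum. None of the 9 further heavy chains, 11 type I interferon-stimulated genes, 10 GTPases or 5 immunoproteasome subunits was called by edgeR or DESeq2. The numbers at an unadjusted p under 0.05 were 2, 4, 1 and 0. Without LK PBS replicate 3, 3 of the interferon-stimulated genes were called lower and 2 of the GTPases higher. Irf8 (-2.59), Irf9 (-0.84) and Rela (-0.60), a subunit of NF-κB, were called lower among 16 transcription factors, and H2-Aa (-2.60) and Cd74 (-1.93) among the class II genes. In the same libraries 7 of 10 neutrophil granule markers were called higher and 4 of 8 erythroid markers lower, and their part was not tested.

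The third comparison set LSK against LK cells within a treatment. With PBS 8 of the 9 genes were called higher in LSK cells and B2m was not; 19.4% of all 13839 genes were called higher. Tap2 differed most (2.79-fold, log2 1.48 ± 0.25 SE, adjusted p = 0.000963), followed by Nlrc5 (2.73-fold, log2 1.45 ± 0.21 SE, adjusted p = 0.000403) and H2-T23 (2.55-fold, log2 1.35 ± 0.25 SE, adjusted p = 0.00161). H2-K1, Erap1 and Tap1 were 2.11-fold, 2.06-fold and 2.05-fold higher, Tapbp 1.70-fold and H2-D1 1.54-fold. The median of the 9 was 1.04, and that of all genes 0.085.

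LSK and LK libraries with PBS did not overlap for 7 of the 9 genes, all but H2-D1 and B2m, and 22.5% of all genes were apart in this direction. H2-D1 (log2 0.62 ± 0.21 SE, adjusted p = 0.0423) lost its call with DESeq2's size factors, with no filter on low counts and without 8 of the 10 libraries in turn, with adjusted p-values up to 0.168. B2m had a log2 difference of 0.33 ± 0.34 SE (adjusted p = 0.492), and without LSK PBS replicate 2 it was 0.68 (adjusted p = 0.0377). The other 7 were called whichever library was left out. Removing LSK PBS replicate 2 lowered the Tap2 difference to 1.09 and the Tapbp difference to 0.58.

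Other genes of the class I and interferon programme were also higher in LSK cells with PBS. These were 7 of 9 further heavy chains (median 1.23), with H2-Q6 (1.74) and H2-Q4 (1.59) highest, 4 of 5 immunoproteasome and PA28 subunits (median 1.03), 9 of 10 GTPases (median 1.59) and 9 of 16 type I interferon-stimulated genes (median 1.39). Among the transcription factors 7 of 16 were called higher, among them Irf1 (2.07) and Irf2 (1.00). All 7 class II genes were called higher (median 3.34). The peptide loading helpers, which serve protein folding in general, had a median of -0.038 and 2 of 11 called higher. All 8 stem and progenitor markers were higher and all 8 erythroid markers lower in LSK cells.

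With IL-1β only Tap2 of the 9 was called between LSK and LK cells, against 2.13% of all genes called higher (295, with 314 lower, and 394 and 247 with upper-quartile scaling). Its levels were 455 and 474 CPM in LSK and 203 and 187 CPM in LK (log2 1.26 ± 0.30 SE, adjusted p = 0.0391), a call that was lost without any of 6 of the 10 libraries, IL-1β libraries of either population among them. The Nlrc5 difference was 0.14 ± 0.26 SE on the log2 scale (adjusted p = 0.793), with LSK at 37.9 and 33.9 CPM inside the LK values of 23.7 and 42.1 CPM. B2m was below LK in both LSK libraries (log2 -0.55 ± 0.42 SE, adjusted p = 0.475). For the other 6 genes the log2 differences were 0.19 to 0.75.

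**Figure D4:**
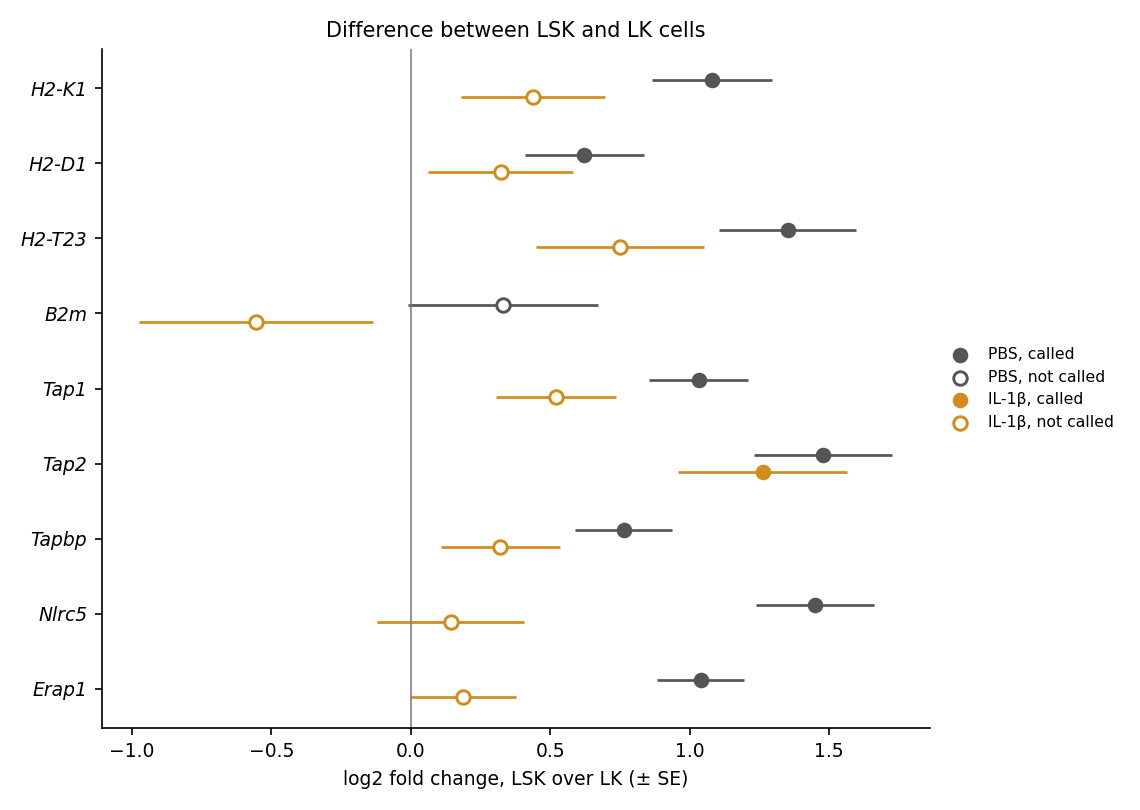
Log2 fold change of LSK over LK cells for the 9 genes with PBS and with IL-1β, bars giving the standard error of the fit and filled points calls. With PBS the points lie at 0.33 to 1.48; with IL-1β at -0.55 to 1.26, and the Nlrc5 point goes from 1.45 to 0.14.

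Whether the response to IL-1β differed between populations was tested as an interaction. Between LSK and LK cells none of the 9 was called by edgeR, and 0.0289% of all genes were called in either direction. An unadjusted p under 0.05 was found for 2 of the 9 and for 1967 of all 13839 genes. The log2 differences were negative for all 9, from -0.22 ± 0.39 SE (Tap2) to -1.31 ± 0.34 SE (Nlrc5, adjusted p = 0.161), and DESeq2 called Nlrc5 alone. The median over all genes was -0.115, and 43.6% of all genes were positive. These contrasts use the same libraries as the comparisons above.

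MSC responses were set against those of the sorted cells in a fit of all 14 libraries. MSC differ from the sorted cells in genotype, culture, dose and duration of treatment, which cannot be told apart from cell type. Against LK cells 2 of the 9 responses were called higher in MSC, Nlrc5 (log2 2.57 ± 0.34 SE, adjusted p = 0.00159) and Tap1 (1.63 ± 0.26 SE, adjusted p = 0.00551), with 1.24% of all genes called higher (191, with 123 lower, and 150 and 180 with upper-quartile scaling). H2-K1 narrowly missed (1.37 ± 0.33 SE, adjusted p = 0.0501). Against LSK cells 5 were called higher, with 5.37% of all genes (826, with 601 lower, and 663 and 828 with upper-quartile scaling). These were Nlrc5 (3.76 ± 0.35 SE, adjusted p = 6.39e-05), B2m (2.28 ± 0.55 SE, adjusted p = 0.0229), Tap1 (2.03 ± 0.27 SE, adjusted p = 0.000714), H2-K1 (1.90 ± 0.33 SE, adjusted p = 0.00509) and Erap1 (1.22 ± 0.23 SE, adjusted p = 0.00791). For Tap2 the responses differed by 0.31 ± 0.39 SE (LSK) and 0.19 ± 0.39 SE (LK) on the log2 scale, neither called.

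Ratios within a library do not depend on its scaling. In read pairs, H2-K1 exceeded H2-D1 1.54, 1.45 and 1.402 times in LSK under PBS, and under IL-1β 1.33 and 1.24 times. In LK cells the ratio was 1.06, 1.01 and 1.10 under PBS, against 1.14 and 1.21 under IL-1β. In MSC it was 0.338 and 0.337 under PBS, against 0.589 and 0.597 under IL-1β. The ratio was therefore above 1 in every library of sorted cells and below 1 in every MSC library, was lower with IL-1β in LSK and higher in LK and MSC, and did not overlap between treatments in any of the populations. The ratio of Tap1 to Tap2 was 0.506 and 0.464 in MSC under PBS, against 1.04 and 0.963 under IL-1β. In LSK it was 0.976, 0.462 and 0.913 under PBS, against 0.436 and 0.442 under IL-1β, the low PBS value again belonging to replicate 2. In LK it was 0.892, 0.913 and 1.05 under PBS, against 0.644 and 0.831 under IL-1β, so that the ratio was lower with IL-1β in both sorted populations and higher in MSC, without overlap. No test was run on these ratios.

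**Figure D5:**
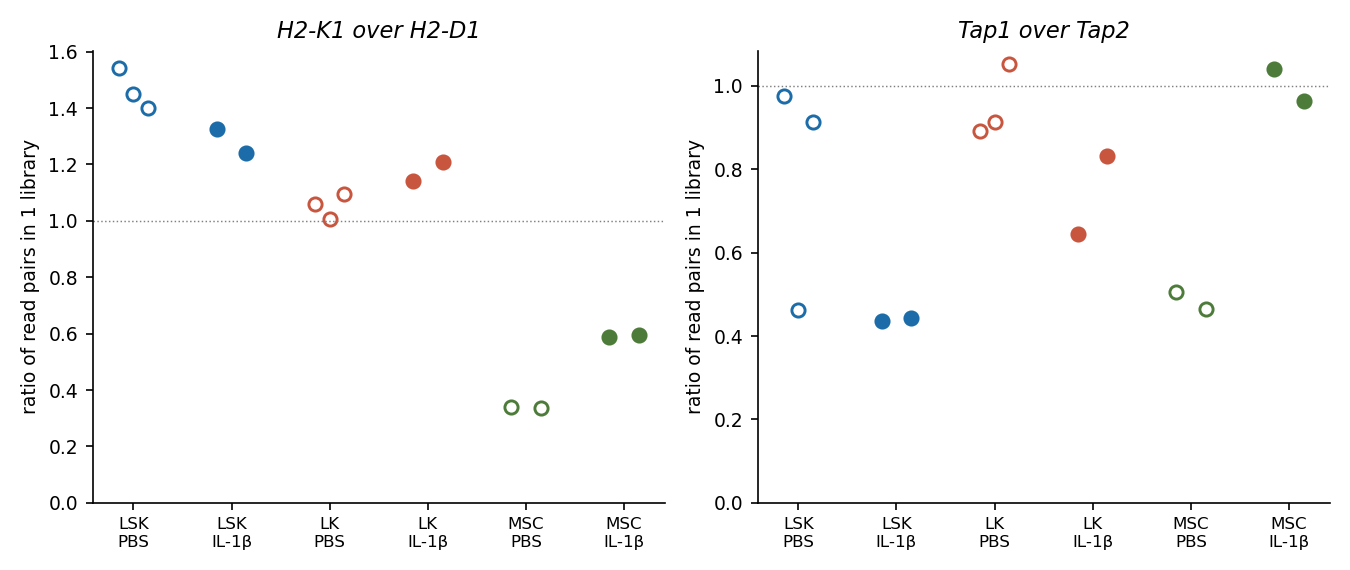
Ratio of read pairs of H2-K1 to H2-D1 (left) and of Tap1 to Tap2 (right) in each library, open points PBS and filled points IL-1β, with a dotted line at equal counts. H2-K1 over H2-D1 lies at 1.01 or above in the sorted cells and at 0.597 or below in MSC.

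How alike the 9 genes were was described by the correlation of each with their mean, over 14 libraries of log2 CPM centred within each population. Pearson's r was 0.79 to 0.98 for 8 of them and 0.37 for Tap2. Each gene was part of that mean, which raises its own r. Among 9853 other genes, the 5 most alike to the mean included Parp12 (r = 0.96), H2-Q7 (0.96), H2-Q6 (0.95) and Dtx3l (0.94). The log2 fold changes of these 4 with IL-1β were 1.23 to 3.20 in MSC, -1.21 to -0.67 in LSK and -0.56 to 0.26 in LK. All points share libraries and the MSC treatment difference, so these values are descriptions.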

How the data were processed

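RNA was sequenced after rRNA depletion from LSK and LK cells (3 PBS and 2 IL-1β libraries each) and MSC (2 and 2). The values the authors deposited are raw counts of read pairs per gene. Per the labels and file headers they were made with fastp 0.20.0, HISAT2 2.0.1, SAMtools 1.10 and featureCounts 2.0.2 (reverse-stranded, on Ensembl genes of GRCm38); the methods also name GenomicAlignments. Multi-mapping pairs were not counted, so paralogs lose shared reads. Symbols were found for 55141 of 55487 identifiers. A further MSC library named in a header is not analysed here.

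The quasi-likelihood test of edgeR 4.0.16 under R 4.3.3 was run on these counts (TMM scaling, filterByExpr, robust fit), within each population for treatment, over the 10 sorted libraries for LSK against LK, and over 14 for MSC against sorted responses. CPM and CPM per kilobase share 1 TMM scale, so a fold from a fit can differ slightly from a ratio of CPM. A group at 0 was given a floor of 3 pairs over the group, which covers counting error only. DESeq2 1.42.0, other size factors, no filter, left-out libraries and blocks were the alternatives. The test was checked on simulated data. Matplotlib 3.10.9 drew the figures.

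Libraries of LSK and LK cells with the same number had correlated deviations from their group means (0.210, 0.126 and 0.470 with PBS and 0.100 with IL-1β, over 13839 genes), and this was taken as pairing. It rests on the data, since the labels give only numbers, and is weak: LSK PBS replicate 2 correlated more with LK PBS replicate 1 (0.160) than with its own number, and with 2 libraries a group the IL-1β value is the same for both pairs by construction. All 9 genes were to be named in every comparison, with the leading called genes and the extremes of each list, apart from 1 gene that is not reported here. The members and lists were chosen with earlier results of these data known.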

Additional observations from a re-analysis of the deposited data

Results flagged for a closer look

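The response to IL-1β differed between populations for 7 combinations of gene and population pair, by the interaction test in edgeR over 14 libraries. Against LK cells, the log2 response in MSC was higher by 2.57 for Nlrc5 and by 1.63 for Tap1. Against LSK cells it was higher by 3.76 for Nlrc5, 2.28 for B2m, 2.03 for Tap1, 1.90 for H2-K1 and 1.22 for Erap1. Both MSC libraries with IL-1β exceeded both with PBS for each of these genes. In LSK every IL-1β library lay under every PBS library for Nlrc5, Tap1 and Erap1, and the ranges of H2-K1 and B2m overlapped. The call of Tap1 against LK cells was lost without LK IL-1β replicate 1 (adjusted p = 0.0523), that of Erap1 without MSC PBS replicate 3 or MSC IL-1β replicate 1, and that of B2m without either IL-1β library of LSK, MSC PBS replicate 3 or either IL-1β library of MSC (adjusted p up to 0.113). No group had enough libraries to test a library as an outlier.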

How the results depend on the processing

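The higher calls in MSC (8) and in LSK over LK with PBS (8) stayed within 1.5 times under DESeq2, other size factors and no filter. The joint fit of 14 libraries gave 4 in MSC. Without a filter on low counts, 2 members were called lower in LSK (against 1), 2 higher in LSK over LK with IL-1β (1), 4 in MSC over LK responses (2) and 8 in MSC over LSK responses (5). Nlrc5 alone was called lower for LSK over LK responses with DESeq2 (1) and with no filter (1). With libraries left out in turn, the calls ranged over 0 to 8 in MSC, 0 to 2 lower in LSK, 0 to 3 higher in LK, 7 to 8 in LSK over LK with PBS, 0 to 1 with IL-1β, 1 to 4 in MSC over LK responses and 3 to 7 in MSC over LSK responses. Small log2 values turned sign: in LSK H2-D1 (-0.38 to 0.20), H2-T23 (-0.63 to 0.15), Tapbp (-0.25 to 0.075) and Tap2 (-0.082 to 0.56), in LK B2m (-0.30 to 0.092) and Tap1 (-0.18 to 0.14), in LSK over LK with IL-1β Erap1 (-0.040 to 0.34), H2-D1 (-0.019 to 0.54) and Nlrc5 (-0.27 to 0.54), in LSK over LK responses Tap2 (-0.34 to 0.18) and H2-D1 (-0.64 to 0.013), and in MSC over LSK responses Tap2 (-0.12 to 0.53). None of these was called. The cause was not tested.

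The replicate block pairing LSK with LK libraries changed no call of the 9 genes between them. PBS and IL-1β libraries of a population share only a number (correlations 0.126 and -0.0351 in LSK, -0.102 and 0.0330 in LK). That replicate block gave 3 higher calls in LK (H2-K1, H2-T23 and Erap1) against 0, and turned H2-D1 in LSK to 0.030, B2m in LK to 0.10 and Tap1 in LK to 0.14. PBS replicate 3 has no IL-1β partner, so this block also takes it out of the contrast, and leaving it out with no block gave the same 3 calls in LK. Over all genes it gave 321 higher and 405 lower calls in LSK against 42 and 41, and 1484 and 884 in LK against 869 and 330. Calls over all genes in LSK were 410 and 481 with DESeq2, 355 and 514 with no filter and 962 and 1022 in the joint fit, which gave 515 and 164 in LK and 335 and 89 in MSC; with no filter they were 1151 and 693 in LK and 1439 and 915 in MSC. DESeq2 and no filter gave 655 and 682, and 716 and 694, for LSK over LK with IL-1β, 116 and 218, and 170 and 228, for LSK over LK responses (1 and 3), 313 and 351, and 386 and 280, for MSC over LK responses, and for MSC over LSK responses 1152 lower with DESeq2 and 1528 higher with no filter. No paired analysis was possible in MSC because its groups share 1 number. With 2 IL-1β libraries and a biological coefficient of variation of 0.377 in LSK, a log2 change of -0.96 (B2m) did not pass there.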

Other observations

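B2m per kilobase was compared with the sum of H2-K1 and H2-D1 per kilobase, as light against heavy chain RNA. The ratio was 1.37, 0.437 and 1.11 in LSK under PBS, against 0.585 and 0.535 under IL-1β. In LK it was 1.44, 1.29 and 1.43 under PBS, against 0.991 and 1.13 under IL-1β, with no overlap. In MSC it was 1.33 and 1.07 under PBS, against 1.49 and 1.41 under IL-1β. Both IL-1β libraries were thus lower than every PBS library in LK and higher in MSC, and no test was run.

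Interferon receptors and their kinases were described from a list of 6. In MSC Ifnar1 (log2 0.54), a subunit of the type I interferon receptor, was called higher, and the median of the 6 was 0.41. In LSK cells none was called by edgeR (3 at an unadjusted p under 0.05) or DESeq2, with Ifnar1 at -0.82 and Ifngr1 at 0.96. In LK cells none was called by edgeR, 1 had an unadjusted p under 0.05 and was called higher by DESeq2, and the median was 0.022. With PBS, LSK cells had more Ifnar1 (0.72) and Ifnar2 (0.66) RNA and less Ifngr1 (-1.44), a subunit of the interferon-γ receptor, than LK cells.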
